A study of Mus musculus with 6 samples.

Results

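The genes described here are 6 digestive enzymes and enzyme cofactors of the acinar cell (Cpa1, Cpb1, Cel, Ctrb1, Pnliprp1 and Clps) and 3 transcription factors of that cell (Bhlha15, Rbpjl and Nr5a2). Members were the probe sets of the array whose platform annotation names 1 of these 9 symbols and no other gene. There were 15 such probe sets of 45101 on the array, and each member gene had at least 1. They were measured in whole pancreas dissected from mouse embryos at the E12.5 stage of gestation, with 3 Hox6 null and 3 control samples on 1 array each. The Hox6 null embryos and the wild-type controls both carry the strain label Bl6. Hox6 stands for the paralogous Hoxa6, Hoxb6 and Hoxc6 genes, and the labels leave unsaid how the genes were disrupted, how many embryos went into a sample, and their sex and litter. RNA was amplified from 10 ng of total RNA before hybridization, per the labels' protocols.

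Acinar cells make and secrete the digestive enzymes of the pancreas. Their programme is driven by the PTF1 complex, in which the bHLH protein Ptf1a pairs with a common E protein and with Rbpj in early progenitors, and later with the paralogue Rbpjl, whose gene is itself a target of the complex. Nr5a2 (LRH-1) is a nuclear receptor that acts together with PTF1 on enzyme genes, and Bhlha15 (Mist1) is a bHLH factor that shapes the secretory apparatus of the mature cell. At E12.5 the organ is a branching epithelium in mesenchyme, and Cpa1 marks the multipotent progenitors at the branch tips before acinar differentiation proper.

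PTF1 binds a bipartite element made of an E-box and a box read by its Rbpj or Rbpjl subunit. The 250 bases before each RefSeq start were searched on both strands for the E-box letters CAGCTG and CACCTG, for TTCCCA, and for CAAGGNCA, the core letters that Nr5a2 reads. Of the 9 members 8 were in the RefSeq table (GRCm38.p6), with Clps the missing one. An E-box and TTCCCA lay within 40 bases of each other in 3 of these 8, against 2.20% of 32851 RefSeq promoters of that length. The letters and the gap were chosen with the sequences in view, so these shares only describe the sequences. The 3 windows are printed because they hold both letters near each other, with every match in capitals.
Ctrb1 (GRCm38.p6, chr8:111691011-111691260, minus strand): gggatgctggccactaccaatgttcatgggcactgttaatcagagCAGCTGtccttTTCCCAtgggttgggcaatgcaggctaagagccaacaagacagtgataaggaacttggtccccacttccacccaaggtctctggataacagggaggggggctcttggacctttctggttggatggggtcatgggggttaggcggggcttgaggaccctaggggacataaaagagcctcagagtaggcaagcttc
Cel (GRCm38.p6, chr2:28563404-28563653, minus strand): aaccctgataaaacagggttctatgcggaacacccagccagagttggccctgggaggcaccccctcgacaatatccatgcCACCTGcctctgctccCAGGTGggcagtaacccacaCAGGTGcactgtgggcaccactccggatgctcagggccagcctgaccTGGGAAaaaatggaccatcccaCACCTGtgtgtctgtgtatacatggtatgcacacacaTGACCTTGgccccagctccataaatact
Rbpjl (GRCm38.p6, chr2:164402944-164403193, plus strand): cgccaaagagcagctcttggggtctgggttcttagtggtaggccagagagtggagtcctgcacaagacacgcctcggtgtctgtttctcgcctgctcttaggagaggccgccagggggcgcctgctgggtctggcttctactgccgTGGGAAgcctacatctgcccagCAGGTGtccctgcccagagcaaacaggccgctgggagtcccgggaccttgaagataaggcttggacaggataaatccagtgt
In Ctrb1 the gap between CAGCTG and TTCCCA was 5 bases. In Cel and in Rbpjl the smallest gap was 16 bases, with TTCCCA on the strand opposite to the gene (TGGGAA as printed). The Cel window also held 1 match to CAAGGNCA, read on the opposite strand, 28 to 21 bases before the start. Across all promoters 27.7% held at least 1 of the 2 E-boxes, 21.6% held TTCCCA and 5.53% held CAAGGNCA. Among the 8 members these numbers were 6, 5 and 2. In the Bhlha15 window the CAAGGNCA match overlapped a CACCTG match. A match of letters shows neither binding nor use of a site.

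The null arrays did not form 1 group over all probe sets. Null 3 correlated with the controls at 0.990, against 0.980 and 0.985 with null 1 and null 2, while controls correlated with each other at 0.994 to 0.995 (Pearson, across probe sets, which are not independent). Of the targeted genes, Hoxb6 read 8.25 to 8.91 in the null arrays and 8.78 to 9.36 in the controls, and Hoxc6 read 6.06 to 6.23 in the null arrays and 5.97 to 6.08 in the controls. Hoxa6 was not analysed here. A probe set outside the disrupted part checks nothing, so these values do not test the genotype labels.

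The acinar genes were higher in Hox6 null arrays 1 and 2 than in every control array, at each of the 15 probe sets, while Hox6 null array 3 read like a control. For null array 3, 10 of the 15 probe sets lay within the control range, 3 above and 2 below it. The share of all probe sets with this order of arrays was not counted, so the order is not shown to be particular to the acinar genes. General epithelial genes had a like order, with list medians of 0.96, 0.79 and 0.04 relative to the control mean in null 1, 2 and 3. The mean change, Hox6 null minus control, was positive for all 15 probe sets, as it was for 57.3% of all probe sets, with a median of 0.76 on the log2 scale, against a median of 0.04 over all 45037 probe sets tested. With null arrays this far apart, 0 of the 15 passed the test (limma, Benjamini-Hochberg adjusted over all probe sets, threshold 0.05), and adjusted p ran from 0.214 to 0.877. The test called 0.00222% of all probe sets, and 0 of those were higher in the null arrays. At an unadjusted p under 0.05 (limma) 9 of the 15 were higher, against 8.17% of all probe sets; several of the 15 read the same gene. Every null array stood above every control array for 3 of the 15, against 12.1% of all probe sets. Values are RMA log2 levels, which never reach 0 and flatten near background, where a change reads smaller than it is.

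**Figure D1:**
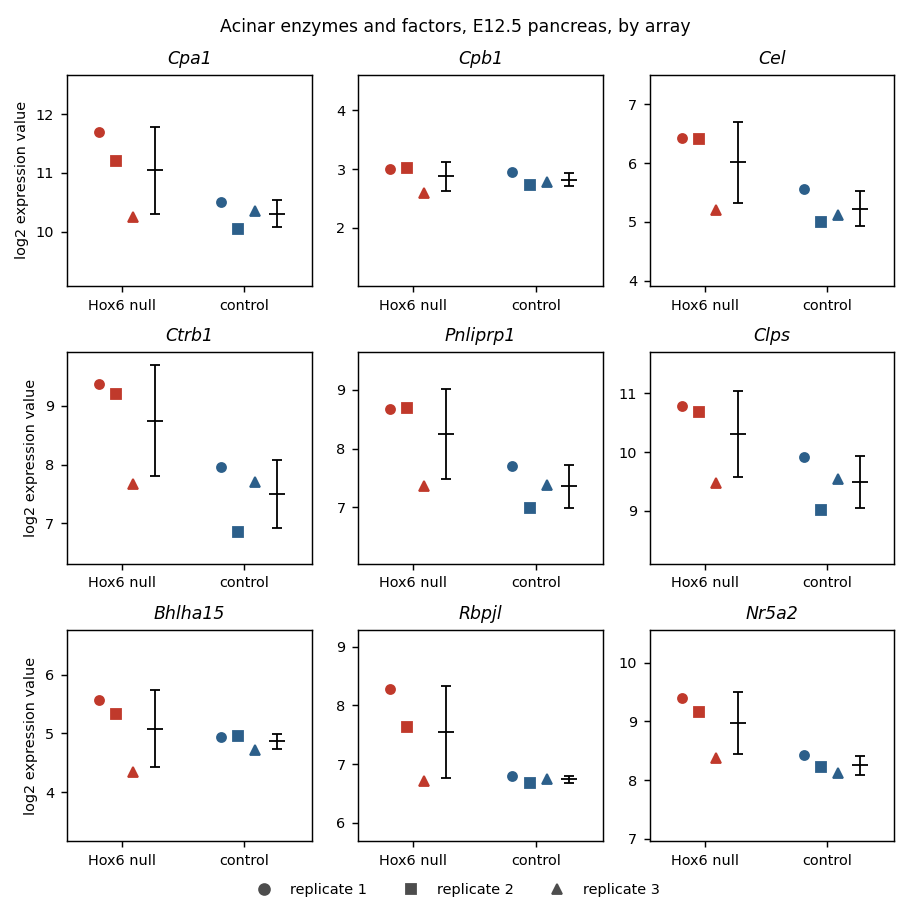
Log2 expression value of each of the 9 member genes in each array (vertical axis), Hox6 null left and control right, for the probe set with the highest mean; marker shapes give the replicate number and bars the mean ± SD (n = 3). Each panel spans the same number of log2 units, and Hox6 null replicates 1 and 2 stand above all controls in each panel while replicate 3 is below the highest control.

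Cpa1, the carboxypeptidase A1 gene and a marker of tip progenitors, is also expressed by acinar cells once they form. Its log2 levels were 11.70, 11.20 and 10.24 in Hox6 null replicates 1, 2 and 3, against 10.50, 10.05 and 10.36 in control replicates 1, 2 and 3. The first 2 null arrays exceeded all controls and null 3 lay within their range. Cpa1 averaged 11.05 ± 0.74 in Hox6 null and 10.30 ± 0.23 in control arrays (SD, n = 3 each), a change of 0.75 ± 0.34 (SE) with an adjusted p of 0.356 (limma). Relative to the control mean, null 1 stood at 2.64-fold, null 2 at 1.86-fold and null 3 at 0.960-fold.

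Ctrb1, the chymotrypsinogen gene whose window with the closely spaced letters is printed above, had the largest mean change of the members. It read 9.37, 9.21 and 7.66 in the null arrays, against 7.96, 6.85 and 7.71 in the controls. The first 2 null arrays stood 3.65-fold and 3.25-fold above the control mean, and null 3 stood at 1.12-fold, inside the control range. The change was 1.24 ± 0.48 (SE, adjusted p = 0.304, limma), and the controls themselves spread by 0.58 (SD), the widest control spread among the members. Control 2 was the lowest of the 6 arrays for Ctrb1.

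Pnliprp1 and Clps belong to fat digestion. Pnliprp1 is a relative of pancreatic lipase with little lipase activity of its own, and colipase (Clps) is the small cofactor that anchors lipase at fat droplets. Pnliprp1 read 8.67, 8.70 and 7.36 in the null arrays, against 7.70, 6.98 and 7.38 in the controls. Null arrays 1 and 2 agreed closely with each other, and null 3 was between control 2 and control 3. The change was 0.89 ± 0.37 (SE, adjusted p = 0.326, limma). Clps read 10.78, 10.69 and 9.47 in the null arrays at probe set 1438612_a_at, against 9.91, 9.02 and 9.55 in the controls. Its change was 0.82 ± 0.37 (SE, adjusted p = 0.354, limma) there and 0.89 ± 0.42 (adjusted p = 0.366) at its other probe set. The array order was alike at both probe sets of Clps, with control 2 lowest and null 3 between control 2 and control 3.

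Cel, the bile salt-dependent lipase whose promoter window is also shown, read 6.43, 6.40 and 5.21 in the null arrays and 5.56, 4.99 and 5.12 in the controls. Null arrays 1 and 2 were again above all controls and null 3 was not. The Cel change was 0.79 ± 0.33 (SE, adjusted p = 0.331, limma), with null 1 and null 2 at 2.30-fold and 2.26-fold of the control mean. Cpb1, carboxypeptidase B1, read 3.01, 3.02 and 2.60 in the null arrays and 2.94, 2.74 and 2.79 in the controls. These values lie under the lower quartile of every array (4.12 to 4.32), where a difference carries little weight, and the Cpb1 change was 0.05 ± 0.15 (SE, adjusted p = 0.877, limma).

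Among the factors, Nr5a2 was read by 4 probe sets with similar changes. At probe set 1456521_at it read 9.40, 9.15 and 8.38 in the null arrays, against 8.42, 8.21 and 8.11 in the controls. Null 3 lay inside the control range there, just under control 1. The change was 0.72 ± 0.25 (SE, adjusted p = 0.279, limma). The changes at the other 3 probe sets of Nr5a2 were 0.73, 0.76 and 0.79, with adjusted p of 0.268, 0.285 and 0.262 (limma). At probe set 1449707_at all null arrays were above all controls, with 7.48, 7.86 and 6.78 in the null arrays against 6.67, 6.44 and 6.65 in the controls.

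Rbpjl, the late partner of Ptf1a, showed tight controls and the widest gap between null arrays 1 and 2. At probe set 1421956_at it read 8.28, 7.64 and 6.72 in the null arrays, against 6.80, 6.69 and 6.74 in the controls. The control SD was 0.06 and the null SD 0.78 (n = 3 each), and null 3 lay among the controls. Null 1 stood at 2.90-fold and null 2 at 1.86-fold of the control mean, and the change of 0.80 ± 0.35 (SE) had an adjusted p of 0.335 (limma). At the other probe set, 1450433_at, Rbpjl read 4.22, 4.40 and 4.16 in the null arrays and 3.81, 3.88 and 3.62 in the controls, a change of 0.49 ± 0.12 (SE, adjusted p = 0.214, limma). There null 3 did lie above the controls, so the 2 probe sets of Rbpjl disagree on that array, and the values of the second are near the lower quartile of the arrays.

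Bhlha15, the factor of the mature secretory cell, also gave unlike answers from its 2 probe sets. At 1449233_at it read 5.58, 5.32 and 4.34 in the null arrays, against 4.94, 4.95 and 4.72 in the controls. Null 3 was the lowest of the 6 arrays there, and the change was 0.21 ± 0.30 (SE, adjusted p = 0.748, limma). At 1418800_at Bhlha15 read 3.69, 4.25 and 3.50 in the null arrays and 3.27, 3.08 and 3.27 in the controls, with all null arrays above all controls and a change of 0.61 ± 0.20 (SE, adjusted p = 0.260, limma). All 6 values of that probe set were under the lower quartile of the probe sets of their array or within 0.01 of it.

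The members differed in how widely the controls spread. Control 2 was the lowest control for 12 of the 15 probe sets and the lowest of all 6 arrays for 11. The control SD of the enzyme genes Ctrb1, Clps, Pnliprp1, Cel, Cpa1 and Cpb1 was 0.58, 0.45, 0.36, 0.30, 0.23 and 0.11, and that of Rbpjl, Bhlha15 and Nr5a2 was 0.06, 0.13 and 0.16. Profiles were compared by the root mean square difference of their centred log2 levels over the 6 arrays, with no test. The closest pair of members was Pnliprp1 and Clps, at 0.07, followed by Cel and Pnliprp1 at 0.10 and by Cpa1 and Rbpjl at 0.11. The pair farthest apart was Cpb1 and Ctrb1, at 0.78.

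By the same measure, genes outside the members were searched for the 3 nearest profiles to each member, over 10890 genes of at least median level. Nearest to Cpa1 were Sez6l2, Proc and the polarity gene Crb3, at 0.07, 0.08 and 0.08. Nearest to Ctrb1 was Cartpt, a neuropeptide gene, at 0.07, followed by Fxyd3 at 0.19 and by Spink1, the secreted trypsin inhibitor of acinar cells, at 0.21. The neuroendocrine secretory gene Resp18 was nearest to both Pnliprp1 (0.03) and Clps (0.06), and it was also near Cel (0.09). Pnliprp1 was next followed by Cckar, the cholecystokinin receptor of acinar cells, at 0.08 and by Mia at 0.11. Clps was next followed by the granin gene Chga and by P2rx1, both at 0.12, and Cel had P2rx1 (0.08) and Clu (0.09) before Resp18. Nearest to Rbpjl were Espn, Tmem238 and Rbm47, at 0.07, 0.08 and 0.08. Nearest to Nr5a2 were Ambp, the protease inhibitor gene Spint1 and the retinol carrier gene Rbp4, at 0.05, 0.05 and 0.06. Bhlha15 had Kcnk3, Zbtb42 and Dram1 at 0.04, 0.06 and 0.07, and Cpb1, near the floor, had Smim26, Paqr7 and Josd2 at 0.04, 0.05 and 0.05. With 6 arrays, most of which separate null 1 and 2 from the rest, many genes can share such a profile.

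The calls turned on null array 3. Without it 11 of the 15 member probe sets passed, all higher, against 2.02% of all probe sets called higher in that fit (910 of 45037). They were the probe sets of Cpa1, Cel, Ctrb1, Pnliprp1 and Nr5a2, both of Clps, and 1421956_at of Rbpjl. Their adjusted p lay between 0.0193 for an Nr5a2 probe set and 0.0459 for Clps (limma). The changes in that fit were 1.15 ± 0.20 for Cpa1, 1.79 ± 0.31 for Ctrb1, 1.21 ± 0.19 for Rbpjl at 1421956_at and 1.02 ± 0.14 for Nr5a2 at 1456521_at (SE). Bhlha15 did not pass, with adjusted p of 0.0646 and 0.0674, nor did Cpb1 (0.343). General epithelial genes also passed in the gene fit without null 3, with counts given in the closing section. Their median change there was 0.88, against 1.09 for the 15 member probe sets. Null 3 was already seen to read like a control for these genes, so the calls without it are no independent support. Leaving out any of the other 5 arrays instead gave 0 of 15. Without null 1 the changes were smaller, at 0.42 for Cpa1, 0.44 for Rbpjl at 1421956_at, 0.93 for Ctrb1 and 0.51 for Nr5a2 at 1456521_at, and the median of the 15 was 0.54.

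**Figure D2:**
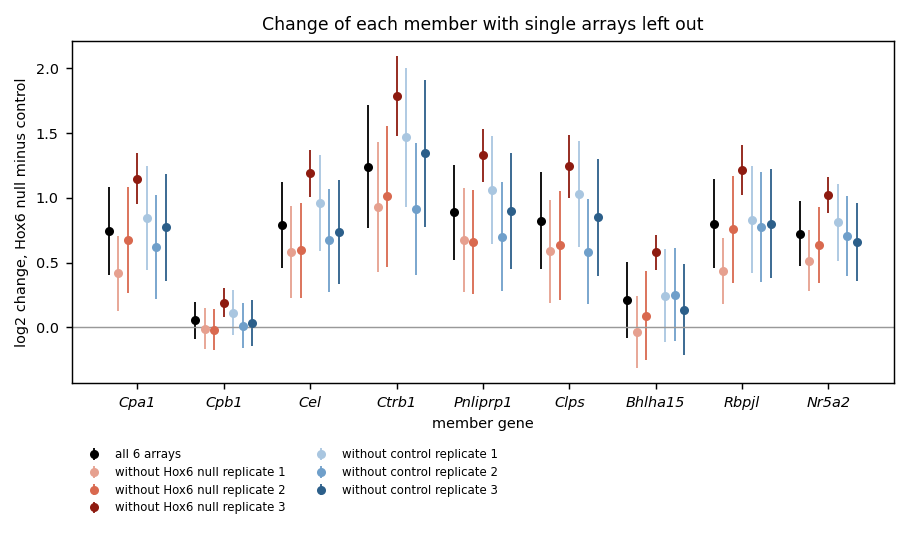
Log2 change, Hox6 null minus control, of each member gene (horizontal axis) with all 6 arrays and with each array left out, for the probe set with the highest mean; points are estimates and bars the moderated standard error. Leaving out Hox6 null replicate 3 gives the highest value for each gene, such as 1.79 for Ctrb1 against 1.24 with all arrays.

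Partners and neighbours of the members in the acinar programme were taken from lists written for this work, with 1 probe set per gene (the one with the highest mean) and adjustment over all 18193 genes. In that fit 13 genes passed, which is 0.0715%, and 0 of the 9 member genes were among them; 3 of the 9 were higher at an unadjusted p under 0.05 (limma), against 8.73% of all genes. Ptf1a, the bHLH subunit of PTF1, read 8.58, 8.56 and 7.50 in the null arrays and 7.85, 7.34 and 7.62 in the controls. As with the enzymes, null 1 and 2 were above the controls and null 3 among them, and its change was 0.61 ± 0.30 (SE, adjusted p = 0.349, limma). Rbpj, the early partner that Rbpjl replaces, read 7.86, 8.29 and 8.30 in the null arrays and 8.32, 8.32 and 8.29 in the controls, a change of -0.16 ± 0.14 (SE, adjusted p = 0.562, limma). The changes at its other probe sets were -0.09 and -0.27. Unlike Rbpjl and Ptf1a, Rbpj had no probe set with a positive change, but the difference between these genes was not tested.

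Of 19 measured regulators and partners of acinar genes, 13 had a positive change, as did 56% of all genes, and 6 a negative one, and 0 passed (limma); 2 were higher and 0 lower at an unadjusted p under 0.05. Their median change was 0.11, against 0.03 over all genes. Nr0b2, the gene of a nuclear receptor that represses Nr5a2, had a change of 0.66 ± 0.19 (SE), with 6.41, 6.44 and 5.74 in the null arrays and 5.50, 5.64 and 5.47 in the controls. All null arrays were above all controls for Nr0b2, though its adjusted p was 0.205 (limma). Prox1, a homeodomain factor of early pancreatic progenitors, stood at 0.77 ± 0.25, Foxa3 at 0.63 ± 0.30 and Creb3l1, a membrane-bound factor of secretory cells, at -0.26 ± 0.12 (SE).

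Other exocrine products had a median change of 0.20, against 0.81 for the 6 member enzymes. With dim probe sets left out these medians were 0.59 and 0.85, and the exocrine median was 0.0935 with repeated quantile normalization and 0.0530 without null 1. Of 25 measured, 21 had a positive change and 4 a negative one; 0 passed, and 0 had an unadjusted p under 0.05 (limma). For 8 of the 25, every array read below the lower quartile. Sycn, a protein of zymogen granule membranes, stood at 0.63 ± 0.27, the amylase gene Amy1 at 0.38 ± 0.18, the secreted lectin gene Reg1 at 0.57 ± 0.31 and the elastase gene Cela1 at 0.59 ± 0.33 (SE). Sycn read 6.97, 6.23 and 6.0 in the null arrays and 6.11, 5.54 and 5.66 in the controls, with control 1 above null 3. At its other probe set Sycn read 6.66, 6.08 and 6.04 in the null arrays and 5.93, 5.69 and 5.59 in the controls. There all null arrays were above all controls, so the probe sets of Sycn disagree on null 3. Set against the control mean, the list medians were 0.49, 0.19 and -0.06 in null replicates 1, 2 and 3, whereas the 6 member enzymes had 1.30, 1.19 and -0.02.

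The secretory apparatus that enzyme-producing cells rely on had a median change of 0.08 over 25 genes, of which 18 were positive and 7 negative. None passed (limma), and 3 were higher and 1 lower at an unadjusted p under 0.05. Stxbp2, a docking protein of secretory granules, stood at 0.43 ± 0.13, the ER protein gene Erp27 at 0.38 ± 0.15, Cckar at 0.87 ± 0.36 and the coatomer gene Copz2 at -0.38 ± 0.10 (SE). Stxbp2 had all null arrays above all controls at the probe set with the highest mean, and Copz2 all below them. At another probe set of Stxbp2 null 3, at 8.4778, lay within the control range, just under control 2 at 8.4784. The remaining probe set of Stxbp2 had all null arrays above all controls.

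For factors of the tip and trunk progenitors the list median of null 3 stood nearer to those of the other null arrays. Single factors differed in this, as the values of Pdx1 and Etv4 below show. All 12 measured were positive, with a median of 0.53, and null replicates 1, 2 and 3 had list medians of 0.57, 0.61 and 0.38. Every null array was above every control for 9 of the 12, against 12.2% of all genes and against 0 of the 9 member genes. These counts take 1 probe set per gene, the one with the highest mean. For 9 of the 12 the unadjusted p was under 0.05, and 0 passed (limma). Pdx1, needed for the pancreas to form, read 9.97, 9.63 and 8.78 in the null arrays and 8.62, 8.24 and 8.27 in the controls. Its other probe set read 9.24, 8.83 and 8.05 in the null arrays and 8.12, 7.83 and 7.82 in the controls. Null 3 lay within the control range at that probe set, as it did for most acinar probe sets. The FGF-responsive tip factor Etv4 read 7.19, 7.03 and 7.10 in the null arrays and 6.62, 6.77 and 6.66 in the controls. There null 3 was as high as the other null arrays. At its other probe set, Etv4 read 4.31, 4.74 and 4.05 in the null arrays and 4.08, 3.98 and 3.83 in the controls. In those values, which are near the lower quartile of the arrays, null 3 lay within the control range. At the probe sets with the highest mean the changes were 1.08 ± 0.29 for Pdx1 and 0.42 ± 0.10 for Etv4 (SE). They were 0.92 ± 0.25 for Nkx6-1 and 1.10 ± 0.31 for Mnx1 (SE). Whether these factors and the acinar genes differ in null 3 was not tested.

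**Figure D3:**
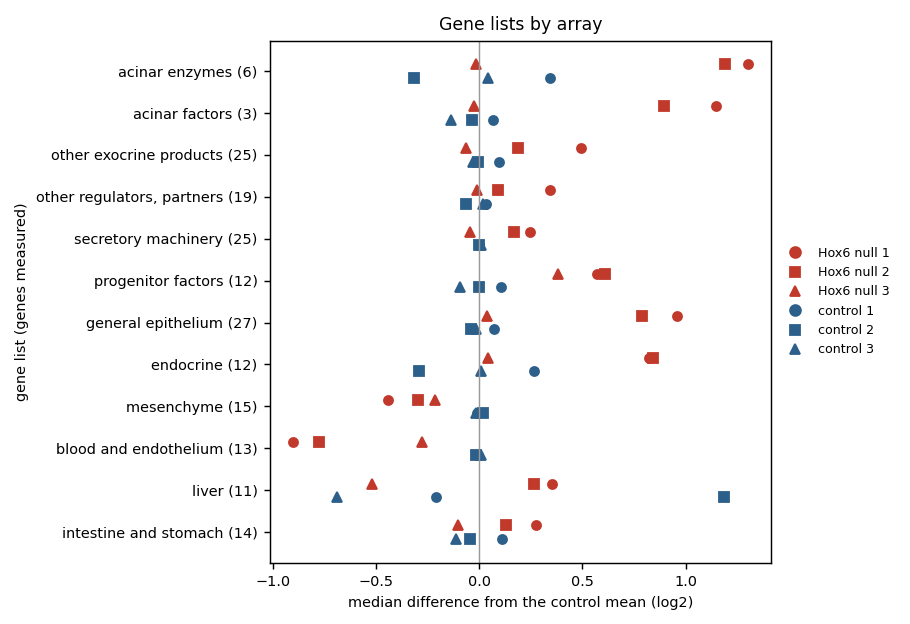
Median over the genes of each list of the log2 difference from the control mean (horizontal axis), by array, with the number of genes measured in brackets; red marks are Hox6 null and blue marks control arrays, and marker shapes give the replicate. The 6 acinar enzymes stand at 1.30 and 1.19 in Hox6 null 1 and 2 and at -0.02 in Hox6 null 3.

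In bulk tissue, more cells of a type and more RNA per cell cannot be told apart. Markers of other cell types also differed between the arrays, in either direction. Of 27 general epithelial genes 25 were positive (median 0.60), with 12 higher and 0 lower at an unadjusted p under 0.05 and 0 past the threshold (limma), and their summed linear level was 10402 to 18878 in the null arrays and 9950 to 10681 in the controls. Of 15 mesenchyme genes 13 were negative (median -0.25, 0 past the threshold, 5 lower at an unadjusted p under 0.05, limma), with a summed level of 18414 to 21910 in the null arrays and 23214 to 23860 in the controls. Of 13 blood and endothelial genes 12 were negative (median -0.59), and 3 of them, Mpo, Tek and Adgre1, fell (adjusted p under the threshold, limma). That count was 9 without null 3, 1 without control 1, 0 without any 1 of null 1, null 2, control 2 and control 3, 0 with the replicate block or the epithelial covariate, and 1 with repeated quantile normalization or a minimum fold change. The summed level of the blood and endothelial genes was 17824 to 23149 in the null arrays and 22961 to 23459 in the controls. Endocrine genes were positive for 12 of 12 (median 0.54, 0 past the threshold and 4 higher at an unadjusted p under 0.05, limma), with sums of 6092 to 8711 in the null arrays and 5142 to 6681 in the controls.

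Liver and gut express Nr5a2 as well, and the liver lies beside the pancreas at dissection. Liver genes were positive for 6 of 11, with a median of 0.03 that ran from -0.46 without control 3 to 0.27 without null 3, and with sums of 5963 to 9678 in the null arrays and 6028 to 10134 in the controls. Hnf4a, a nuclear receptor gene on the liver list, read 8.24, 8.04 and 7.09 in the null arrays and 7.37, 7.23 and 7.15 in the controls. A place on that list does not make a gene specific to liver. Serpina1b, an antitrypsin gene, read 10.71, 10.67 and 9.49 in the null arrays and 9.80, 9.80 and 9.59 in the controls. For both, null 1 and 2 were above all controls and null 3 was below them at these probe sets. The other probe set of Serpina1b had the same order. At the other probe sets of Hnf4a null 1 and 2 were also above all controls. There null 3, at 5.50, 4.73 and 6.01, lay within the control range. Ahsg had a change of 0.24 ± 0.14 (SE). Alb, the albumin gene, read 6.44, 8.02 and 7.20 in the null arrays and 7.98, 10.60 and 7.25 in the controls. Control 2, the lowest array for most acinar probe sets, was thus the highest for Alb. Intestine and stomach genes were positive for 10 of 14 (median 0.19), with sums of 1097 to 2037 in the null arrays and 1090 to 1404 in the controls. In either list 0 genes passed and 0 had an unadjusted p under 0.05 (limma). No marker can read 0 on the RMA scale, but 5 of the 14 gut genes lay below the lower quartile in every array. The part of these tissues in the acinar values was not tested.

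The acinar genes were therefore also set against the epithelium of the same array. The mean level of the 27 epithelial genes was 8.76, 8.52 and 7.85 in null replicates 1, 2 and 3, against 7.85, 7.76 and 7.81 in the controls, a change of 0.57. With this level subtracted from each array, 12 of the 15 acinar probe sets had a positive change, against 2.22% of all probe sets, with a median of 0.19, and the median of all genes moved to -0.54. The subtraction lowered every change by the same 0.57, so the shares of all probe sets in that fit follow from it. They do not measure an acinar excess over epithelium. The general epithelial genes themselves had a median of 0.03 in that fit. With the same level as a covariate in the fit instead, the direction did not hold: 7 of the 15 were positive, against 51.5% of all probe sets, with a median of -0.0390, and 0 of 15 passed (limma). In the covariate fit Cpa1 stood at -0.16 ± 0.17 (SE). In the fit with the level subtracted 0 of 15 passed, with adjusted p between 0.156 and 0.925 (limma), and 1 of the 15, that of Ctrb1, was higher at an unadjusted p under 0.05, against 0.0933% of all probe sets. The share of all probe sets called higher at the adjusted threshold was 0.0377%.

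Relative to the epithelial level Ctrb1 stood at 0.62, 0.68 and -0.18 in the null arrays, against 0.10, -0.90 and -0.10 in the controls, a change of 0.67 ± 0.33 (SE). Null 1 and 2 remained above the controls for Ctrb1. For Rbpjl at 1421956_at the relative levels were -0.48, -0.89 and -1.13 in the null arrays and -1.05, -1.07 and -1.06 in the controls, a change of 0.23 ± 0.33. For Nr5a2 at 1456521_at they were 0.64, 0.63 and 0.53 in the null arrays and 0.57, 0.46 and 0.31 in the controls, a change of 0.15 ± 0.33, with null 3 just under the highest control. Bhlha15 at 1449233_at had the opposite order, with -3.18, -3.20 and -3.50 in the null arrays, all below the -2.92, -2.81 and -3.09 of the controls, a change of -0.36 ± 0.33 (SE, adjusted p = 0.359, limma). This order held for 2 of the 15 probe sets, those of Bhlha15 and Cpb1, against 33% of all probe sets, a share that the subtraction itself raises. The standard error was the same for each probe set in this fit, because limma took 1 common variance.

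**Figure D4:**
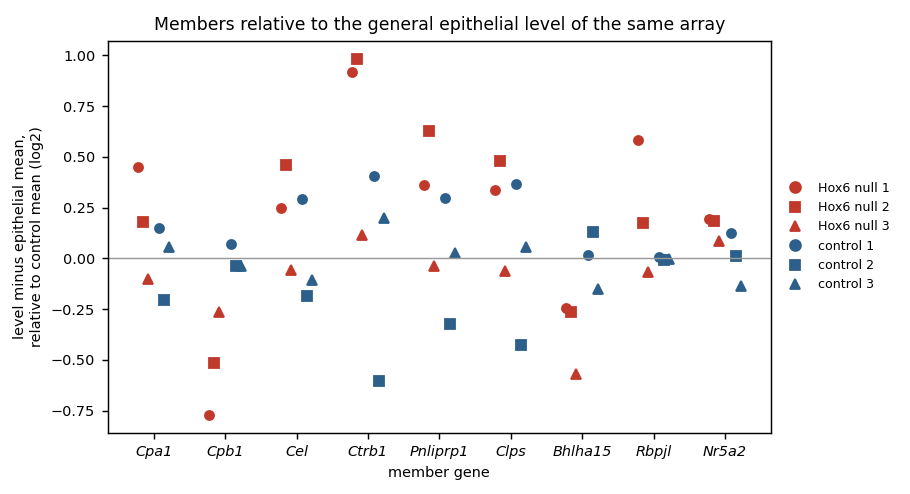
Level of each member gene minus the mean log2 level of 27 epithelial genes of the same array, relative to the control mean (vertical axis, log2), for the probe set with the highest mean; red marks are Hox6 null and blue marks control arrays, with shapes for replicates. Cpa1, Ctrb1, Pnliprp1, Rbpjl and Nr5a2 have Hox6 null replicates 1 and 2 above the controls, and Cpb1 and Bhlha15 have all null arrays below them.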

How the data were processed

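The authors deposited 1 log2 value per probe set and array, with 1 array per sample. The authors' processing used RMA, affy and limma, per the submitters' processing notes, which give no versions; the genome build is not given in the sources used here. RMA makes values relative to the other arrays. The number of arrays limits the precision, and array medians were 5.97 to 6.02.

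Gene names come from the platform annotation, which gave 1 symbol for 34945 probe sets and several for 932. The 64 array controls were left out. Hox6 null minus control was fitted with limma 3.58.1 in R 4.3.3 (lmFit and eBayes, genotype as the single term, two-sided) over 45037 probe sets, and over 18193 genes by their highest-mean probe set. P-values measure the spread between samples that the labels call biological replicates. With 3 against 3 arrays an exact permutation test cannot go below 0.1. The fit was tested on simulated data, but the outcome is not reported here and no result rests on it.

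Members, lists and tests were chosen with earlier results of these data known. Genes named besides the members are Ptf1a, Rbpj, up to 4 per list by smallest p, and the 3 nearest profiles per member. Alternatives changed the variance prior, filter, normalization, array weights, block, feature, epithelial level, threshold and arrays. Promoters came from RefSeq (GRCm38.p6) and were searched with Python 3.11.15.

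Array pairs correlated at 0.979 to 0.995 over probe sets and had 53 to 166 probe sets with identical values as deposited (no tolerance), so no array was counted as a repeat.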

Additional observations from a re-analysis of the deposited data

How the results depend on the processing

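The count of member probe sets past the threshold was 0 under all alternatives that keep the 6 arrays, and 0 to 11 with 1 array left out. Of 145 member changes under the alternatives with 6 arrays, 133 kept sign and side of the threshold and 12 turned sign. Cpb1 turned with repeated quantile normalization (-0.0723). With the epithelial level as a covariate, Cpa1 (-0.16), Cpb1 (-0.23), Cel (-0.0545), Pnliprp1 (-0.0390), Clps (-0.0895 and -0.151), Bhlha15 (-0.56) and Rbpjl (-0.13) turned; with it subtracted, Cpb1 (-0.52), Bhlha15 (-0.36) and Rbpjl at 1450433_at (-0.0844) did. With 1 array left out Cpb1 ranged from -0.0197 without null 2 (and -0.0105 without null 1) to 0.19, and Bhlha15 from -0.0353 (without null 1) to 0.58. None of these passed, and the cause was not tested.

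Over all probe sets 1 passed, and 63 with intensity trend and robust prior, 16 with the dim filter, 0 with repeated quantile normalization, 41 with array weights, 2 with the epithelial covariate, 2364 with epithelial centring and 0 with a minimum fold change of 1.2, in a range of 0 to 1902 with 1 array left out. Over genes 13 passed, and 74, 37, 1, 155, 8, 1445 and 1 under the same 7 settings, 8 with median centring and 0 with the replicate block, in a range of 0 to 1536 with 1 array left out. Blood and endothelial genes gave 5 with the prior, 1 with quantile normalization, 5 with array weights, 0 with the block, 0 with the covariate, 11 with centring and 1 with the minimum fold, and mesenchyme genes 3 with the prior, 2 with the filter, 1 with array weights and 6 with centring. Centring also gave 1 other exocrine product, 1 secretory gene and 4 liver genes. With 1 array left out, the counts ranged from 0 to 5 for member enzymes and for endocrine genes, 0 to 3 for member factors and other exocrine products, 0 to 6 for regulators, progenitor factors and mesenchyme, 0 to 4 for secretory genes, 0 to 20 for epithelium, 0 to 2 for liver and 0 to 9 for blood and endothelium; each upper end is the fit without null replicate 3.

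Replicate numbers were tried as a pairing, and deviations of same-numbered arrays correlated at 0.14, 0.0049 and 0.06. Control 1 and control 3 correlated best with the null array of their own number, and control 2 with null 3 (0.05). Correlations this weak cannot settle whether the numbers pair the samples. With the replicate block 0 of 15 member probe sets passed and 1 of all probe sets. No detection calls were used, so Cpb1 and the dimmer probe sets of Bhlha15 and Rbpjl may be at background.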
